A study of Homo sapiens with 6 samples.

Results

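ATP-binding cassette (ABC) genes were read in Mec-1, a human B cell line established from chronic lymphocytic leukaemia, on arrays labelled as cells with a SLAMF1 short hairpin RNA (shRNA) and on control arrays. A probe was taken as a member where its annotated symbol began with ABCA, ABCB, ABCC, ABCD, ABCE, ABCF or ABCG and went on with a number. This gave 74 of the 47323 probes listed, for 46 of 20046 annotated genes, of which 41 are annotated as protein coding and 5 as transcribed pseudogenes (ABCA11P, ABCA17P, ABCC13, ABCC6P1 and ABCC6P2). ABC genes without a probe annotated in this way were not analysed here.

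ABC proteins share an ATP-binding domain, and most of them are membrane pumps that spend ATP to carry lipids, peptides, drugs, conjugates or metabolites across a membrane. The subfamilies are named by sequence. ABCA members mainly handle lipids, the ABCB subfamily holds the drug pump P-glycoprotein beside peptide and mitochondrial transporters, the ABCC subfamily holds the multidrug resistance-associated proteins, ABCD members serve peroxisomes and lysosomes, and ABCG members handle sterols and drugs. ABCE1 and the ABCF proteins have no membrane part and act on ribosomes. In leukaemia the family is best known for drug efflux, and ABCB1 is its reference member.

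The control group was 3 arrays of Mec-1 cells transfected with a scrambled shRNA cassette (TR30013), and the other group was 3 arrays of a Mec-1 variant made with a SLAMF1 shRNA in the pGFP-V-RS construct (TG309422). Both were grown in vitro in complete medium, and the design text calls the 3 arrays of each group biological replicates. It does not say whether these were separate clones or separate cultures of 1 line. The p-values below therefore measure only how these arrays vary, which may be technical. All 6 arrays lay on 1 chip, with the controls in positions A to C and the others in D to F, so that group and position on the chip cannot be told apart. The RNA extraction protocol names purified leukaemic cells, whereas every sample is labelled as the cell line.

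The probe for SLAMF1, the targeted receptor gene, was not lower on the arrays labelled SLAMF1 shRNA. Its log2 normalized signal was 8.26, 8.38 and 8.01 on the control arrays and 8.70, 8.44 and 8.64 on the others, a difference of 0.38 ± 0.17 (SE, n = 3 per group; limma adjusted p = 0.171), or 0.46 (adjusted p = 0.0571) without the second array of that label. The labels are therefore used below as names of arrays. Mean signal per array was 208 to 294.3, and 17192 to 19586 probes per array were detected above the negative controls. Replicate 2 of the arrays labelled SLAMF1 shRNA had the fewest detected probes and correlated with its 2 group mates at 0.928 and 0.94, where those 2 correlated at 0.994 and the controls at 0.982 to 0.993. The called ABC differences and the counts of calls are therefore also given without it. Each cell type marker is read here by 1 probe, its brightest tested one, or its brightest where none was tested. Detection of a marker below is that of this probe, and some markers, such as CD3D and CD8A, have further probes. Of 7 B cell markers with a probe, 6 were detected on all 6 arrays and PAX5 on 1 array. The summed level of these markers ran from 1795 to 2003 on the control arrays and from 4846 to 6747 on the others. The list did not move as a whole, since CD22, CD79A and CD79B were higher by 2.37, 1.93 and 1.83 (limma adjusted p = 0.00291, 0.000396 and 0.00176), while MS4A1, CD37 and BLNK, at -1.45, 0.37 and -0.26, were not called (adjusted p = 0.0551, 0.124 and 0.268). The T cell markers CD3D, CD3E and CD8A were detected on no array, and the summed level of the 6 T cell markers was 116.9 to 125.8 against 124.8 to 130.4. Of 4 natural killer cell markers none was detected on all 6 arrays and NCR1 and KLRD1 on none, but NKG7 was higher by 1.98 (adjusted p = 0.0162), and their sum was 80.0 to 85.46 against 125.7 to 276.2. Of 5 myeloid markers with a probe none was detected on all 6 arrays and MPO on none; CSF1R was at least 1.53-fold higher (adjusted p = 0.0114), and the sum was 109.0 to 113.1 against 114.1 to 132.3. Of 5 epithelial or stromal markers none was detected on all 6 arrays; EPCAM was at least 1.35-fold lower (adjusted p = 0.0447), and the sum was 121.0 to 126.1 against 97.27 to 97.85. Of 3 erythroid markers HBB and ALAS2 were detected on no array, and the sum was 60.24 to 63.1 against 58.82 to 62.55. The part of these markers in the ABC results was not tested.

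Of the 74 ABC probes, 30 probes of 19 genes were bright enough to be tested, which meant a detection p-value under 0.05 on at least 3 of the 6 arrays. That is 40.5% of the ABC probes, against 40.3% of all probes. The other 44 probes stayed dim, at 4.09 to 4.89 on the log2 scale. No probe of 22 genes was detected on any array, and 5 further genes (ABCA5, ABCA10, ABCA12, ABCC10 and ABCD2) had a probe detected on 1 or 2 arrays without passing. Of the 30 tested probes 4 were detected in 1 group only and passed through that group. These were ABCA1 ILMN_1766054, ABCA6 ILMN_1701551, ABCB1 ILMN_2094875 and ABCB9 ILMN_2343047. Their presence among the tested probes already depends on a difference, so their p-values are not separate support for it. The same holds for the probes of CSF1R, EPCAM and FOXO3.

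In the fit over all 19073 tested probes, 7 ABC probes were higher and 3 were lower on the arrays labelled SLAMF1 shRNA than on the controls, at a limma adjusted p under 0.05. These 10 probes are 33.3% of the tested ABC probes, where 18.7% of all tested probes were called, 9.24% higher and 9.42% lower. The 10 belong to 6 genes, and 5 of the 10 were detected on all 6 arrays. ABCA6 ILMN_1701551, ABCB1 ILMN_2094875 and ABCB9 ILMN_2343047 are among the 10 and passed the filter through 1 group alone. The ABC share therefore counts probes whose testing already depended on a difference. The share of all probes was formed with the same filter. ABCB1, ABCB9, ABCG1 and ABCC5 were higher by at least 1 probe, and ABCE1 and ABCA6 were lower. The groups of arrays did not overlap for 15 of the 30 probes, against 41.4% of all tested probes. The median log2 difference was 0.03 over the 30 ABC probes and -0.01 over all probes tested, and the median absolute difference was 0.44 against 0.36. Without replicate 2 of the arrays labelled SLAMF1 shRNA, 12 ABC probes were higher and 3 lower, with 30.8% of all probes called. All 10 probes called with 6 arrays were among these 15, and the 5 added were those of ABCA1, ABCA7 and ABCB6 and both of ABCC4. The ABCA1 probe too passed the filter through 1 group alone.

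**Figure D1:**
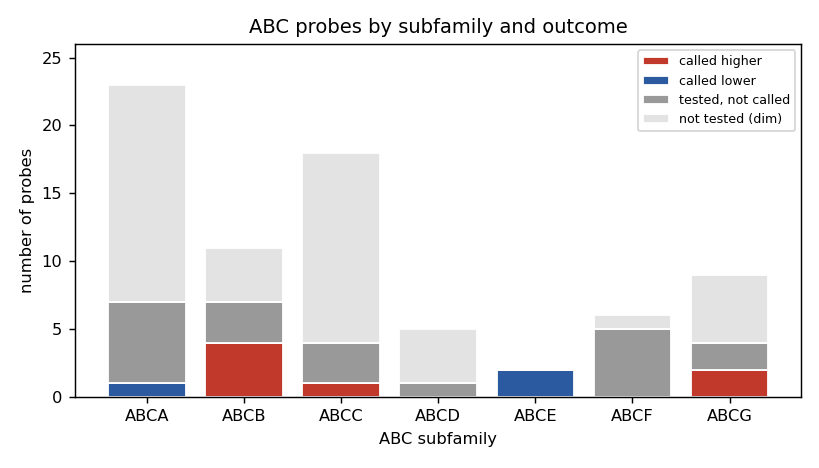
Number of ABC probes in each subfamily (bars, stacked by outcome: called higher, called lower, tested but not called, and too dim to test). The 7 probes called higher lie in ABCB (4), ABCG (2) and ABCC (1), the 3 called lower in ABCE (2) and ABCA (1), and most probes of ABCA and ABCC were too dim to test. ABCB1 ILMN_2094875, ABCB9 ILMN_2343047 and the ABCA probe called lower passed the detection filter through 1 group alone, so their calls are not separate support. Of all tested probes 9.24% were called higher and 9.42% lower.

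By subfamily, ABCB had 4 of 7 tested probes higher and none lower, with a median log2 difference of 0.66. Of all tested probes 9.24% were called higher and 9.42% lower. The 4 ABCB probes are those of ABCB1 and ABCB9, and by brightest probe 2 of 5 tested ABCB genes were higher. Among these probes, ABCB1 ILMN_2094875 and ABCB9 ILMN_2343047 passed the detection filter only through the group where they were higher. They are not separate support, and the median of 0.66 is the value of ILMN_2343047, whose difference is a bound. ABCG had 2 of 4 higher, all 4 being ABCG1 probes, with a median of 0.73. ABCC had 1 of 4 higher with a median of 0.21, and ABCA had 1 of 7 lower with a median of -0.08. The lower ABCA probe, ABCA6 ILMN_1701551, passed the filter only through the control arrays, so its call is not separate support either. Both tested ABCE probes were lower, with a median of -1.27, and of 5 ABCF probes and 1 ABCD probe none was called. Without replicate 2 of the arrays labelled SLAMF1 shRNA, 5 ABCB, 3 ABCC, 2 ABCA and 2 ABCG probes were higher, and the lower ones were again 2 of ABCE and 1 of ABCA. Of all tested probes 15.3% were then called higher and 15.6% lower.

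**Figure D2:**
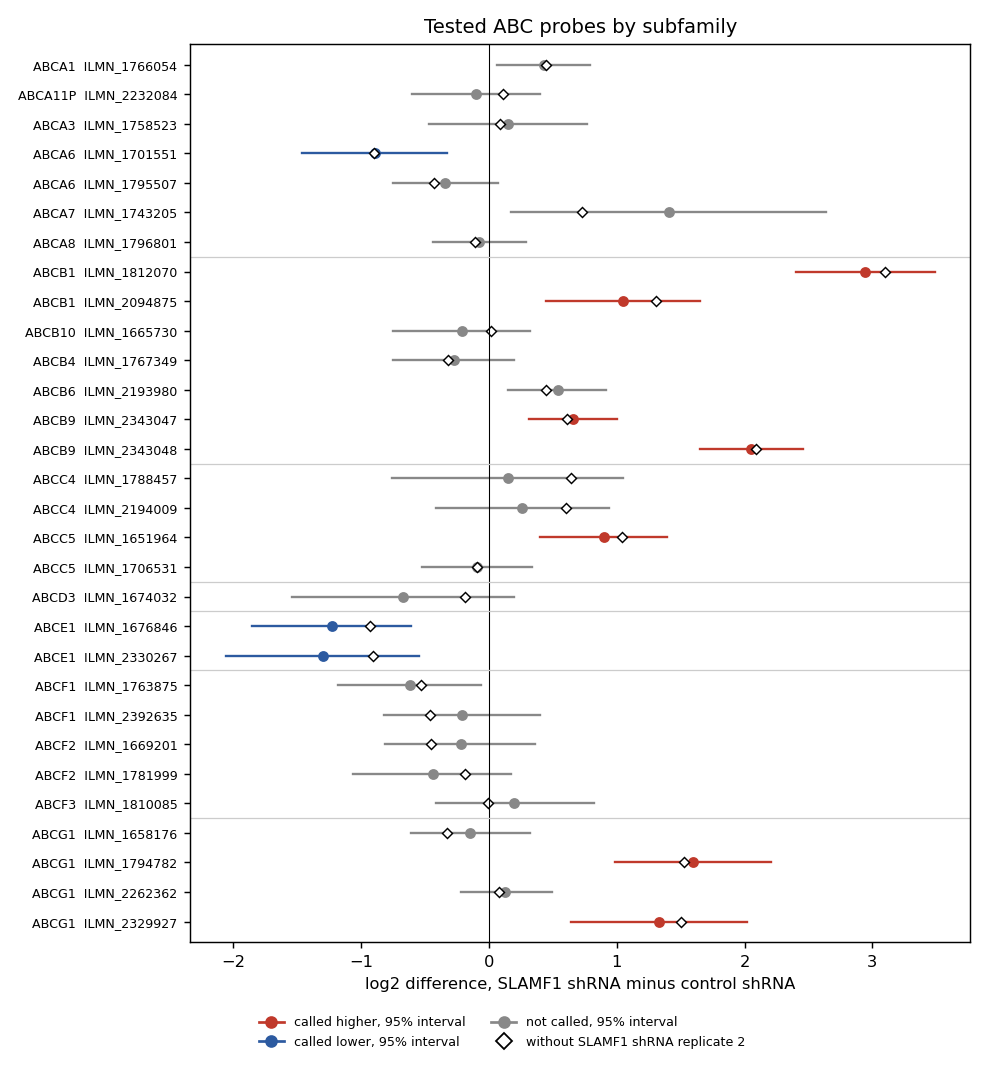
Log2 difference, arrays labelled SLAMF1 shRNA minus control, of the 30 tested ABC probes by subfamily (points, with 95% intervals from limma) and the same without replicate 2 of the arrays labelled SLAMF1 shRNA (diamonds). ABCB1 probe ILMN_1812070 has the highest value, 2.94, and the ABCE1 probes the lowest, -1.23 and -1.30; leaving the replicate out brings the ABCE1 values to -0.93 and -0.91.

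Promoter windows of 5 of the 6 genes with a called probe are shown, since the results turn on these genes. The sixth is ABCG1. ABCB1 has a pair of distant starts in RefSeq and both are shown, and of the 3 windows of ABCB9 the first listed is shown. Each window runs 5′ to 3′ from 250 bases before to 50 after a start in the RefSeq table for GRCh38.p14, which held a window for 34 of the 46 symbols, 51 windows in all. Capitals mark a CCAAT box (CCAAT or ATTGG), a GC box (GGGCGG or CCGCCC), an E-box (CACGTG) or a forkhead core (TGTTTAC or GTAAACA).
ABCB1, distal start, chr7:87713246-87713545, minus strand: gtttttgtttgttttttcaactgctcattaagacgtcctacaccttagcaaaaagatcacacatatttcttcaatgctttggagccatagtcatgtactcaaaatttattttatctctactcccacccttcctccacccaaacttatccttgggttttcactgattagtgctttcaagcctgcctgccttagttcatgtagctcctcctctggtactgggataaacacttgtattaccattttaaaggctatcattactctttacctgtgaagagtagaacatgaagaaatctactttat
ABCB1, proximal start, chr7:87600835-87601134, minus strand: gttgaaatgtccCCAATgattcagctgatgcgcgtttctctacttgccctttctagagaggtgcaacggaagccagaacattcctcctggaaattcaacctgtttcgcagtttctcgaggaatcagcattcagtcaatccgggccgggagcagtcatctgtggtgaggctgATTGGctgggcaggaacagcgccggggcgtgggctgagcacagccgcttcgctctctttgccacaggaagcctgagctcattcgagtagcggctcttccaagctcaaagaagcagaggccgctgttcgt
ABCB9, first listed start, chr12:122966414-122966713, minus strand: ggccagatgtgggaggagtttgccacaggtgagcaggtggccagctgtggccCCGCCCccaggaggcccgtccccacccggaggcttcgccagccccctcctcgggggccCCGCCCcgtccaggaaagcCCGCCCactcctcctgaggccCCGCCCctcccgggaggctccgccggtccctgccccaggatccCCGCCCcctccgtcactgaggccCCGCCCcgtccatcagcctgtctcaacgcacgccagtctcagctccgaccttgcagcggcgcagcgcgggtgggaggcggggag
ABCC5, chr3:184017835-184018134, minus strand: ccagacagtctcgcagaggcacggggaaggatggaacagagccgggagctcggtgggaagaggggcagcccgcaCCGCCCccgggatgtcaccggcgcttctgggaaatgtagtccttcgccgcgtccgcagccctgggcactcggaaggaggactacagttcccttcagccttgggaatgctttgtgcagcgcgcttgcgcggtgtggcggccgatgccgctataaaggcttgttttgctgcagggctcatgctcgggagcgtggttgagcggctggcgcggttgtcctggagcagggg
ABCE1, chr4:145098061-145098360, plus strand: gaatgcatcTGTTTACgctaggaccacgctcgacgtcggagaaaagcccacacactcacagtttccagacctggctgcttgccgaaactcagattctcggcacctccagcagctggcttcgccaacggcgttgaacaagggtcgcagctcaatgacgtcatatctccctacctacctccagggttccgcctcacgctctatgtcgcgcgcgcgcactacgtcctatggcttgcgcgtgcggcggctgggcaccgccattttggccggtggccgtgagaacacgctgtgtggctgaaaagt
ABCA6, chr17:69141846-69142145, minus strand: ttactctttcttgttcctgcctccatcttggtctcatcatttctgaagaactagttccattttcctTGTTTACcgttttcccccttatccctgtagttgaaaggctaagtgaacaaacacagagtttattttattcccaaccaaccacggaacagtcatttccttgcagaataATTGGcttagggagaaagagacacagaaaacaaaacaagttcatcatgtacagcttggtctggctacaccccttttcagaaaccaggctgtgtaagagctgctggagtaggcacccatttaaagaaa
The distal ABCB1 window was 37.7% G and C and held none of the motifs searched. The proximal one was 55.3% G and C and held a CCAAT box at -238 and an inverted one at -79, counted from the start. At -234 it also held a match to both the AP-1 motif (TGANTCA) and the antioxidant response element (TGANNNNGC), which overlap there. The ABCB9 window shown was 75.3% G and C with 6 GC boxes, all inverted, and the ABCC5 window held 1, at -176. The ABCB9 window shown lies inside the annotated gene, whose outer end (122975114) falls in a window not shown. That window was 66.7% G and C, with 1 GC box and 1 E-box. The remaining ABCB9 window was 58.7% G and C, with 1 GC box, 1 CCAAT box and 1 match to the antioxidant response element. ABCE1 and ABCA6 each held 1 forkhead core, at -241 and -184. Among all 35093 windows of this length, both strands searched, 34.6% held a CCAAT box, 44.9% a GC box, 7.26% an E-box, 7.71% the AP-1 motif, 41.8% the antioxidant response element and 3.42% a forkhead core, and the shares in the 51 ABC windows were 23.5%, 49.0%, 17.6%, 11.8%, 45.1% and 5.88%. The ATF4 composite site (TGATGNAA) was in 3.62% of all windows and 5.88% of ABC windows. Such a match is a run of letters and not a bound site.

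ABCB1, on chromosome 7, encodes P-glycoprotein, the plasma membrane pump that expels many anticancer drugs, and both of its probes were higher on the arrays labelled SLAMF1 shRNA. Probe ILMN_1812070 read 4.49, 5.18 and 4.93 on the control arrays and 7.98, 7.51 and 7.94 on the others (log2 normalized signal, replicates 1 to 3 in order). The lowest of the arrays labelled SLAMF1 shRNA stood well above the highest control. The means were 4.87 ± 0.35 and 7.81 ± 0.26 (SD, n = 3), a log2 difference of 2.94 ± 0.23 (SE) or 7.70-fold, with a 95% interval of 2.40 to 3.49 on the log2 scale and limma adjusted p = 0.000261. In the deposited signal the same probe read 96.7, 103.5 and 98.9 against 344, 183 and 317, close to the array background in the controls. The difference was 3.10 without replicate 2 of the arrays labelled SLAMF1 shRNA, and the probe stayed called under all 16 alternative settings in which it could be tested, with differences from 1.59 with no background correction to 3.10.

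The second ABCB1 probe, ILMN_2094875, was much dimmer. It read 4.12, 4.23 and 4.16 on the control arrays, where it was detected on none, and 5.21, 4.72 and 5.74 on the others, where it was detected on all 3. The groups did not overlap, and the spread among the arrays labelled SLAMF1 shRNA was wide, with replicate 2 lowest. The means were 4.17 ± 0.06 and 5.23 ± 0.51 (SD, n = 3), a difference of 1.05 ± 0.26 (SE; limma adjusted p = 0.0283), or at least 1.67-fold higher, since the control level is a bound. The probe passed the detection filter through the arrays labelled SLAMF1 shRNA alone, so this p-value is not separate support. This call held under 4 of 15 alternative settings, and with no background correction the difference was 0.41 (adjusted p = 0.0531). It was lost without any 1 of the 3 controls (adjusted p = 0.0972, 0.0893 and 0.108 without replicates 1, 2 and 3) and without replicate 1 or 3 of the arrays labelled SLAMF1 shRNA (0.0543 and 0.0703), and it held without replicate 2 (difference 1.31, adjusted p = 0.000256).

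**Figure D3:**
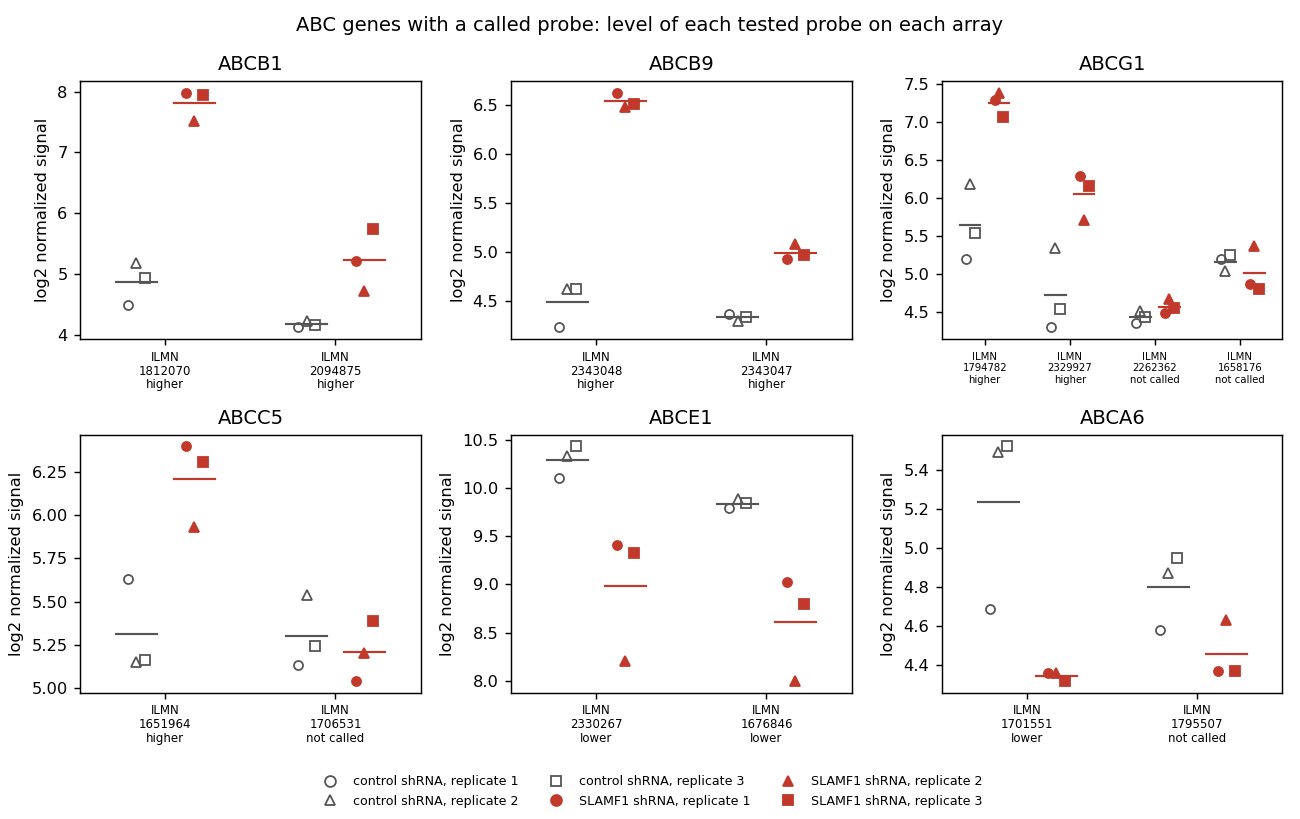
Log2 normalized signal of every tested probe of the 6 ABC genes with a called probe on each array (open grey, control; filled red, labelled SLAMF1 shRNA; marker shape gives the replicate; lines are group means), with a scale of its own for each gene. ABCB1 and ABCB9 each have a probe whose groups lie far apart (ILMN_1812070 and ILMN_2343048), and ABCG1 and ABCC5 each have probes with separate and with overlapping groups.

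ABCB9, on chromosome 12, encodes a peptide transporter of lysosomes related to the TAP transporter, and both tested probes were higher. Probe ILMN_2343048 read 4.23, 4.62 and 4.62 on the control arrays and 6.63, 6.48 and 6.52 on the others. The arrays labelled SLAMF1 shRNA were close together and all above the controls. The probe was detected on 2 of the 3 controls, with deposited signals of 89.0, 91.8 and 92.4 there. Its fold change therefore rests on a control level near background. The difference was 2.05 ± 0.18 (SE, n = 3 per group) or 4.15-fold, with a 95% interval of 1.65 to 2.46 on the log2 scale and limma adjusted p = 0.000393. It was 2.09 without replicate 2 of the arrays labelled SLAMF1 shRNA and stayed called under all 16 alternative settings that could test it, at 0.85 with no background correction. Probe ILMN_2343047 read 4.37, 4.30 and 4.34 on the control arrays, detected on none, and 4.93, 5.08 and 4.97 on the others. Its groups did not overlap either, at a much smaller distance. This was a difference of 0.66 ± 0.15 (SE; limma adjusted p = 0.0215), at least 1.43-fold higher. Without any 1 array other than replicate 2 of the arrays labelled SLAMF1 shRNA, its adjusted p was 0.0503 to 0.091, and with no background correction the difference was 0.20 (0.0597). Without that replicate it was 0.61 (0.00893). The remaining ABCB9 probe, ILMN_1788928, was detected on no array.

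ABCB6, a mitochondrial and lysosomal transporter linked to porphyrins, read 7.03, 6.81 and 7.05 on the control arrays and 7.39, 7.66 and 7.44 on the others. The groups did not overlap, but the difference of 0.54 ± 0.16 (SE, n = 3 per group) missed the threshold (limma adjusted p = 0.0607). It passed under 7 of 17 alternative settings, one of which left out replicate 2 of the arrays labelled SLAMF1 shRNA (0.45, adjusted p = 0.0465). ABCB10, a mitochondrial transporter needed for haem production, differed by -0.21 (95% interval -0.75 to 0.32) with overlapping groups. ABCB4, the phosphatidylcholine transporter of the bile duct side of liver cells and the gene most like ABCB1, read 5.09, 5.48 and 5.33 against 5.26, 5.11 and 4.71. Its groups overlapped, at a difference of -0.27 (95% interval -0.75 to 0.20; limma adjusted p = 0.392). ABCB5, ABCB8 and ABCB11 were detected on no array.

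ABCB4 is also the tested gene next to ABCB1 in the RefSeq gene order, and the neighbours of ABCB1 were called about as often as genes in general. Of the 10 nearest tested genes on each side, 3 of 20 were higher and 2 of 20 lower, where 11.9% of all genes were higher and 10.6% lower. The median log2 difference of the 20 was -0.25. Without replicate 2 of the arrays labelled SLAMF1 shRNA 3 were higher and 3 lower, with a median of -0.15, and 18.6% and 16.7% of all genes were called. RUNDC3B, the next tested gene on the other side, was higher by 1.10 ± 0.17 (SE; limma adjusted p = 0.00463), SRI by 0.86 (adjusted p = 0.0133) and STEAP1 by 1.06 (adjusted p = 0.0282). ADAM22 differed by -0.94 (adjusted p = 0.0178) and CDK14 by -1.59 (adjusted p = 0.00541). With all 6 arrays, every called neighbour, higher or lower, lay on the RUNDC3B side, and none on the ABCB4 side was called. Whether genes of this region moved together was not tested. The medians over the 10 nearest tested genes were 0.20 for ABCA6, 0.31 for ABCB9, -0.02 for ABCC5, -0.18 for ABCE1 and -0.08 for ABCG1.

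**Figure D4:**
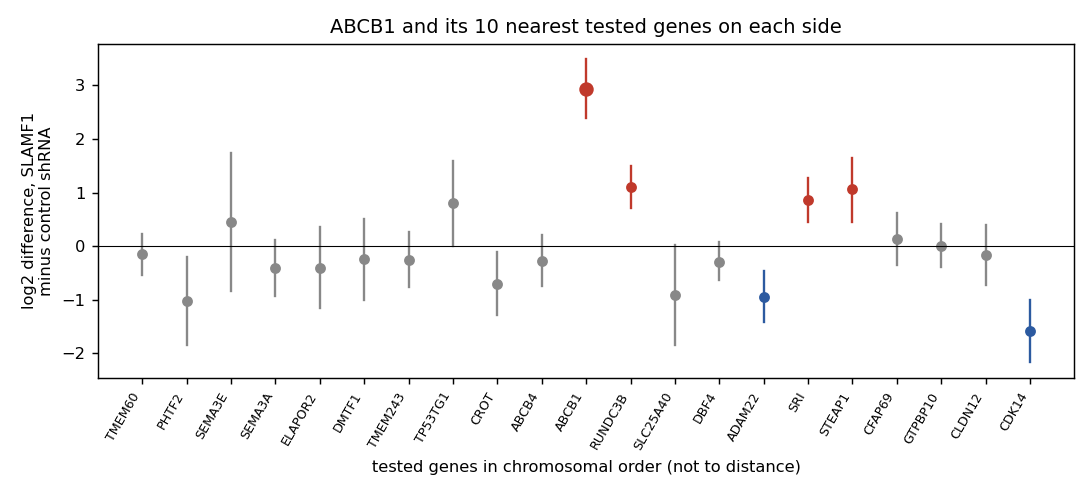
Log2 difference, arrays labelled SLAMF1 shRNA minus control, with 95% intervals, for ABCB1 (probe ILMN_1812070) and the 10 nearest tested genes on each side in gene order, not to distance (red, called higher; blue, called lower; grey, not called). ABCB1 stands at 2.94, its neighbours RUNDC3B and ABCB4 at 1.10 and -0.27, and CDK14 is lowest at -1.59.

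ABCG1, on chromosome 21, encodes an exporter of cellular cholesterol to lipoproteins, and its probes did not all give the same difference. Probe ILMN_1794782 read 5.20, 6.19 and 5.55 on the control arrays and 7.29, 7.39 and 7.07 on the others. All 3 arrays labelled SLAMF1 shRNA were above all controls. The difference was 1.60 ± 0.26 (SE, n = 3 per group) or 3.03-fold, with limma adjusted p = 0.00622, and it was 1.53 without replicate 2 of the arrays labelled SLAMF1 shRNA. It stayed called under all 17 alternative settings, at 0.88 with no background correction. Probe ILMN_2329927, annotated to the same transcript, read 4.30, 5.34 and 4.54 against 6.29, 5.72 and 6.16. Here too the groups were apart, with replicate 2 the highest control and the lowest of the others. The probe was detected on 2 of the 3 controls, so its fold change also rests on a dim control level. The difference was 1.33 ± 0.30 (SE) or 2.52-fold, with limma adjusted p = 0.0201. That call was lost without replicate 1 or 3 of the controls (adjusted p = 0.0768 and 0.0943) or replicate 3 of the arrays labelled SLAMF1 shRNA (0.0675), with median centring (0.0922), with no detection filter (0.0766) and with a replicate block (0.059). The difference was 1.50 without replicate 2 of the arrays labelled SLAMF1 shRNA and 0.52 with no background correction.

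Of the ABCG1 probes annotated to other transcripts, ILMN_1658176 read 5.20, 5.04 and 5.26 against 4.87, 5.37 and 4.80, with overlapping groups and a difference of -0.15 (95% interval -0.61 to 0.32). ILMN_2262362 read 4.36 to 4.67, near background, was detected on 1 control array and differed by 0.13 (95% interval -0.22 to 0.49). ILMN_1695968 was detected on 1 array and its difference was not tested. Whether the ABCG1 probes differ by transcript was not tested. The remaining ABCG genes with a probe, ABCG2, the breast cancer resistance protein, ABCG4, and the paired sterol transporters ABCG5 and ABCG8, were detected on no array.

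ABCC5, on chromosome 3, encodes an exporter of cyclic nucleotides and other organic anions. Probe ILMN_1651964 read 5.63, 5.15 and 5.16 on the control arrays and 6.40, 5.93 and 6.31 on the others. The groups did not overlap. It was higher by 0.90 ± 0.21 (SE, n = 3 per group) or 1.86-fold (limma adjusted p = 0.025). That call was lost without replicate 2 or 3 of the controls (adjusted p = 0.101 and 0.112) or replicate 1 or 3 of the arrays labelled SLAMF1 shRNA (0.0644 and 0.086), with median centring of the arrays (0.242) and with no detection filter (0.057). The difference was 1.04 without replicate 2 of the arrays labelled SLAMF1 shRNA and 0.40 with no background correction. Probe ILMN_1706531, annotated to another transcript, read 5.13, 5.54 and 5.24 against 5.04, 5.20 and 5.39, with overlapping groups and a difference of -0.09 (95% interval -0.52 to 0.34). The remaining probe, ILMN_2302358, is annotated to the transcript of the first and was detected on no array.

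ABCC4, which exports cyclic nucleotides, nucleotide drugs and prostaglandins, turned on 1 array. Probe ILMN_1788457 read 7.31, 7.65 and 7.27 on the control arrays and 8.08, 6.59 and 8.01 on the others, and ILMN_2194009 read 7.50, 7.68 and 7.40 against 8.17, 7.12 and 8.08. On both probes replicate 2 of the arrays labelled SLAMF1 shRNA was below every control while replicates 1 and 3 were above. With all arrays the differences were 0.15 ± 0.39 and 0.26 ± 0.29 (SE, n = 3 per group; limma adjusted p = 0.824 and 0.568). Without that replicate they were 0.64 and 0.60 (adjusted p = 0.014 and 0.0141). Among the other ABCC genes with a probe, ABCC10 was detected on 1 array and ABCC2, ABCC3, ABCC8, ABCC9, ABCC11, ABCC12 and the pseudogenes ABCC13, ABCC6P1 and ABCC6P2 on none.

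ABCE1, on chromosome 4, encodes the ATPase that splits ribosomes after translation ends, and it was the gene called lower by all its probes. Probe ILMN_1676846 read 9.79, 9.88 and 9.84 on the control arrays and 9.03, 8.00 and 8.80 on the others. Probe ILMN_2330267 read 10.10, 10.33 and 10.43 against 9.41, 8.21 and 9.33. On both, all controls were above all arrays labelled SLAMF1 shRNA, whose replicate 2 was by far the lowest. The differences were -1.23 ± 0.27 and -1.30 ± 0.32 (SE, n = 3 per group), 2.34-fold and 2.47-fold lower, with limma adjusted p = 0.0184 and 0.0297. Without that replicate they were -0.93 and -0.91 (adjusted p = 0.000935 and 0.00132). Leaving out any 1 control ended both calls (adjusted p = 0.0661 to 0.0801 and 0.08 to 0.12), as did median centring (0.0583 and 0.0691) and testing without the detection filter (0.0641 and 0.11), with the sign kept.

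The ABCF proteins, which bind ribosomes or initiation factors, had 5 tested probes and no call, with 1 probe at an unadjusted limma p under 0.05, as had 33.6% of all probes. ABCF1 probe ILMN_1763875 read 10.40, 11.23 and 11.07 on the control arrays and 10.39, 10.10 and 10.36 on the others, a difference of -0.62 (95% interval -1.18 to -0.06; limma adjusted p = 0.118). The highest of the arrays labelled SLAMF1 shRNA lay just under the lowest control, and without control replicate 1 the difference was -0.87 (adjusted p = 0.0391). The second ABCF1 probe differed by -0.21, the ABCF2 probes by -0.22 and -0.44 and ABCF3 by 0.20, all with overlapping groups. ABCD3, a peroxisomal importer of fatty acids, read 6.95, 6.98 and 6.75 against 6.71, 5.28 and 6.69. Replicate 2 of the arrays labelled SLAMF1 shRNA set most of that gap, since the difference was -0.67 ± 0.37 (SE; limma adjusted p = 0.257) with it and -0.19 without it. ABCD2 was detected on 1 array and ABCD4, a lysosomal partner in cobalamin release, on none.

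ABCA6, in the lipid transporter subfamily and on chromosome 17, was lower by 1 of its tested probes. Probe ILMN_1701551 read 4.69, 5.49 and 5.52 on the control arrays and 4.36, 4.36 and 4.32 on the others, where it was detected on none. The arrays labelled SLAMF1 shRNA all sat at background, and control replicate 1 was nearest to them. The difference was -0.89 ± 0.24 (SE, n = 3 per group; limma adjusted p = 0.0409), at least 1.65-fold lower. This call held under 6 of 16 alternative settings and was lost without replicate 2 or 3 of the controls (adjusted p = 0.147 and 0.16) or replicate 1 or 3 of the arrays labelled SLAMF1 shRNA (0.0737 and 0.108). The difference was -0.90 (0.0125) without replicate 2 of these, -0.42 (0.0824) with an offset of 50 and -0.29 (0.0879) with no background correction or in the second deposited table. The other tested probe, ILMN_1795507, differed by -0.34 (95% interval -0.75 to 0.07) with overlapping groups.

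ABCA1, which loads cholesterol and phospholipid onto apolipoproteins, read 4.22, 4.44 and 4.25 on the control arrays, detected on none, and 4.82, 4.67 and 4.69 on the others, detected on all 3. The groups did not overlap, at a difference of 0.43 ± 0.16 (SE, n = 3 per group; limma adjusted p = 0.0999), at least 1.19-fold, that passed without replicate 2 of the arrays labelled SLAMF1 shRNA (0.45, adjusted p = 0.0477). ABCA7, a phospholipid transporter close to ABCA1, read 4.53, 4.64 and 4.36 against 4.90, 7.26 and 5.58. Replicate 2 of the arrays labelled SLAMF1 shRNA was far above the rest, and the difference of 1.41 ± 0.53 (SE; limma adjusted p = 0.108) became 0.73 (adjusted p = 0.0178) without it and 1.91 (adjusted p = 0.0275) without replicate 1. These values are of probe ILMN_1743205, detected on 2 of the 3 controls and dim there. Another ABCA7 probe annotated to the same transcript, ILMN_1729894, was detected on no array. The surfactant lipid transporter ABCA3 differed by 0.15 (95% interval -0.47 to 0.77), the pseudogene ABCA11P by -0.10 and ABCA8 by -0.08, all with overlapping groups. ABCA2, ABCA4, ABCA9, ABCA13 and the pseudogene ABCA17P were detected on no array.

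Probes of 1 gene did not always give the same difference. In 6 ABC genes several tested probes were detected in both groups. In 2 of these, ABCC5 and ABCG1, a pair of probes gave log2 differences more than 0.5 apart, and in the other 4 (ABCC4, ABCE1, ABCF1 and ABCF2) none did. In ABCA6, ABCB1 and ABCB9, 1 of the tested probes was detected on no array of 1 group, so that its difference is a bound. With each gene read by its brightest tested probe, 4 ABC genes were higher (ABCB1, ABCB9, ABCC5 and ABCG1) and 2 lower (ABCA6 and ABCE1) of 19, where 11.9% of all 10832 genes were higher and 10.6% lower. ABCA6 is read here by ILMN_1701551, which passed the filter through the control arrays alone.

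Genes that work with the ABC proteins were counted in the same way, by brightest probe, against a median of 0.02 over all genes. Of all genes 11.9% were called higher and 10.6% lower. Members of the ABC superfamily under other names were not called. TAP1, which pairs with TAP2 to carry peptides for MHC class I, differed by 0.00 (95% interval -0.56 to 0.55), and TAP2 by 0.61 ± 0.20 (SE; limma adjusted p = 0.0752), which passed without replicate 2 of the arrays labelled SLAMF1 shRNA (0.79, adjusted p = 0.00233). The other tested TAP2 probe differed by 0.09 with all 6 arrays. CFTR, the chloride channel, was detected on no array. Of 7 tested genes of the liver X receptor (LXR) system, which drives ABCA1 and ABCG1 in sterol-loaded cells, 1 was higher and none lower, with a median of 0.34. This was SREBF1, a regulator of lipid synthesis, at 4.80, 5.78 and 5.05 on the control arrays and 6.91, 6.69 and 7.04 on the others, a difference of 1.67 ± 0.27 (SE, n = 3 per group; limma adjusted p = 0.00541), or 1.76 without replicate 2 of the arrays labelled SLAMF1 shRNA.

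Of 11 tested factors described at the ABCB1 promoter, none was higher and 2 were lower, with a median of -0.22. FOXO3, a forkhead transcription factor, read 8.07, 8.32 and 8.61 on the control arrays and 4.32, 4.33 and 4.45 on the others. It was detected on none of the arrays labelled SLAMF1 shRNA and was at least 14.1-fold lower (limma adjusted p = 3.29e-05). The fitted difference was -3.97, and -3.95 without replicate 2 of these arrays. Of its 4 probes 1 other was tested and differed by -1.73. HDAC1, a histone deacetylase, differed by -0.87 ± 0.20 (SE; adjusted p = 0.022), or -0.77 without that replicate. Of 13 tested genes of haem and iron-sulfur cluster synthesis, 1 was higher and 2 lower, with a median of 0.28. The higher one was PPOX, which oxidises protoporphyrinogen (1.36, adjusted p = 0.0126), and the lower ones were FECH, which puts iron into haem (-0.81, adjusted p = 0.0262), and GLRX5, which passes on iron-sulfur clusters (-0.70, adjusted p = 0.0329). Without replicate 2 of the arrays labelled SLAMF1 shRNA these were 1.06, -0.72 and -0.83.

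The remaining lists are given beside the shares of all genes, 11.9% called higher and 10.6% called lower. Of 10 tested genes of glutathione supply and transfer 1 was higher, the glutathione synthetase GSS (0.91, limma adjusted p = 0.0227), with a median of 0.36. Of 6 peroxisomal partners of ABCD 1 was higher, the peroxisome assembly gene PEX16 (1.05, adjusted p = 0.0398), and its other probes differed by 0.18 and 0.99; the list's median was -0.19. Of 9 genes of sphingolipid synthesis and handling 1 was higher, the ceramide synthase CERS5 (0.80, adjusted p = 0.0488), with a median of 0.17. None of 8 cobalamin partners of ABCD4, with a median of 0.09, or of 11 tested ribosome recycling and start factors, with a median of 0.15, was called by limma, and 2 and 4 of them had an unadjusted p under 0.05, as had 38.4% of all genes. Leaving out any 1 control took the counts called higher to 0 for haem and iron-sulfur cluster synthesis, glutathione, the peroxisomal partners and the sphingolipid genes. Leaving out replicate 3 of the arrays labelled SLAMF1 shRNA did so for the peroxisomal and sphingolipid genes and took the haem count called lower to 0. Control replicates 2 and 3 also took that haem count to 0, and without either of them, or replicate 3 of the other arrays, the promoter factors had 1 gene lower. Without replicate 2 of the arrays labelled SLAMF1 shRNA, the counts higher and lower were 2 and 1 for the LXR system, 4 and 3 for haem and iron-sulfur cluster synthesis, 2 and 1 for glutathione, 1 and 2 for the ABCB1 promoter factors, 2 and 0 for cobalamin, 1 and 0 for the peroxisomal partners, 2 and 0 for the sphingolipid genes and 1 and 1 for the ribosome factors. Of all genes 18.6% were then called higher and 16.7% lower. GSS, PEX16 and CERS5 were then at 0.70, 0.72 and 0.56.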

How the data were processed

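Gene expression was measured on Illumina beadchips in 6 samples of Mec-1 cells, 3 with a control shRNA and 3 labelled SLAMF1 shRNA. The values used were the deposited signal intensities of the probes. The submitters' processing notes name GenomeStudio, with its version not given in the sources used here. Per the file headers, a detection p-value stands beside every intensity. A second deposited table of intensities, whose processing is not stated in the labels, had 100% of its values within 1% of the quantile-normalized signals, and was used as an alternative. Of 47323 probes listed, 30113 have 1 gene symbol in GEO's platform annotation and 8 have several.

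Background was corrected with limma 3.58.1 (nec, from the detection p-values, offset 16) in R 4.3.3, and values were quantile-normalized on the log2 scale. Probes with detection p under 0.05 on at least 3 of 6 arrays were kept (19073). Each was tested separately with lmFit and eBayes, arrays labelled SLAMF1 shRNA minus control, with Benjamini-Hochberg adjustment over all probes kept and a threshold of 0.05. A gene's count uses its brightest tested probe. Levels of different probes are not compared with each other; a planned comparison of the ABCB1 probes with each other is not reported, because 1 of them was at background on all controls. Where 1 group had no array with a detected probe, the change is given as a bound ("at least"). The number of arrays limits the precision. The fit was checked on simulated data. Alternatives were other background corrections, offsets, normalizations, filters, probe choices, variance models, array weights, a replicate block, and each array left out in turn.

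The ABC rule, the related lists and the markers were chosen with earlier results of these data known. Every ABC gene with a probe is named; of each related list up to 3 called members with the largest absolute difference are named. Replicate numbers were checked for pairing: deviations from the group means of same-numbered arrays correlated at -0.219, -0.129 and 0.235. Those of differently numbered arrays ran from -0.293 to 0.275, so no pairing was seen and the main fit used none. With 3 arrays per group this cannot decide whether same-numbered arrays shared a batch.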

Additional observations from a re-analysis of the deposited data

How the results depend on the processing

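ABCB1 probe ILMN_1812070, ABCB9 probe ILMN_2343048 and ABCG1 probe ILMN_1794782 stayed called under every alternative that could test them (16, 16 and 17). The alternative that could not test the ABCB1 and ABCB9 probes was detection p under 0.01 on all arrays, a filter they did not pass. The number of ABC probes called higher, 7, became 3 with median centring, 2 with detection p under 0.01 on all arrays, 12 with array weights and 4 with a replicate block, and 3 to 12 with 1 array left out. The number called lower, 3, became 1 with median centring, 0 without the detection filter and 9 with array weights, and 0 to 3 with 1 array left out. By brightest probe, the 4 ABC genes higher became 2 with detection p under 0.01 on all arrays and 8 with array weights, and 3 to 8 with 1 array left out. The 2 ABC genes lower became 0 with no filter, 4 with array weights, and 1 with cyclic loess, median centring, the replicate block, the second deposited table, the mean of each gene's probes, detection p under 0.01 on all arrays, an offset of 50 or uncorrected background, and 0 to 2 with 1 array left out. ABCB1 probe ILMN_2094875 kept its sign but not its call at 0.41 with no background correction, 0.48 with an offset of 50, 1.07 with median centring, 0.41 in the second deposited table, 1.05 with no filter and 1.05 with the replicate block (adjusted p = 0.0534), and it ran from 0.80 to 1.31 with 1 array left out. Fewer probes tested, fewer arrays or lost residual degrees of freedom are built into the stricter filter, the leave-outs and the block; for the rest the cause was not tested.

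Signs reversed in probes that were not called in the main setting. These were ABCA3 (-0.06 with median centring; -0.03 to 0.45 with 1 array left out), ABCA11P (0.11 with array weights; -0.23 to 0.11), ABCB10 (-0.39 to 0.02), ABCC4 ILMN_1788457 (-0.14 with median centring; -0.11 to 0.64, and -0.08 without replicate 3 of the arrays labelled SLAMF1 shRNA), ABCC4 ILMN_2194009 (-0.03 with median centring), ABCC5 ILMN_1706531 (0.05 with array weights; -0.18 to 0.03) and ABCF3 (-0.02 with median centring, -0.14 with array weights; -0.01 to 0.40). Median centring moved the median of all probes to -0.14, so its differences are relative to that. Over all probes, 1762 higher and 1796 lower became 969 and 1380 with median centring, 5325 and 5659 with array weights, and 737 to 2909 higher and 731 to 2975 lower with 1 array left out. The array weights ran from 0.08825 (replicate 2 of the arrays labelled SLAMF1 shRNA) to 28.41, and their fit did not reach convergence. Their calls are therefore given only within counts, which include the counts of alternative settings for single probes. Their differences are given only where a sign reversed. Signals near background left 44 of 74 ABC probes untested, and differences of dim probes depend on the background correction.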
